A study of Mus musculus with 17 samples.

Results

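In all, 12 of the 17 mouse bile duct RNA-seq libraries were compared, 6 on each side, across all genes. The count columns of the table carry codes in place of sample names, and the sides were chosen from the levels of matrix and hypoxia genes in these same columns. Codes R62848 and R63500, with 3 libraries each, had high levels and form the matrix-high side, and codes R63289 and R63496, also with 3 each, form the matrix-low side. The working name of this contrast was stroma-rich against stroma-poor. That name rests on matrix genes, and genes that identify fibroblasts differed much less, so the sides are called here by their matrix genes. The choice on matrix genes by itself favours that gap. Codes R62850 and R63494, with 5 libraries, were left out of the contrast and are given for reference only. The series is a mouse study of extrahepatic cholangiocarcinoma, a tumour of the large bile ducts beyond the liver. Its labels describe every sample as total RNA from bile duct tissue and give no genotype, treatment, time, age or sex. Both sides therefore share one label, and the labels say no more of what the codes stand for.

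Because the sides were chosen on the outcome, the difference between them was not tested, and no p-value is given for it. Levels are in CPM, the deposited count of a gene relative to its library's total after TMM scaling, and a difference is the mean of the 2 code means on the matrix-high side minus that on the matrix-low side, in log2 CPM. A gene was called higher or lower when the 6 libraries of one side all lay beyond the 6 of the other and the difference was at least 2-fold. The 2 codes of a side were also compared with each other by edgeR's quasi-likelihood test. The choice of sides did not use that contrast directly, but it put together codes with like levels of matrix and hypoxia genes. For those genes, few within-side differences are favoured by the choice itself. The labels do not say whether the libraries of a code came from separate animals, so those p-values measure only the spread between the libraries of a code. In bulk tissue, fewer cells of a type and less RNA per cell cannot be told apart.

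The matrix-high libraries held 16400556 to 21860274 counts and the matrix-low ones 17016507 to 19623222. Pearson's r of log2 CPM across genes was 0.967 to 0.987 within a code, 0.957 to 0.977 between the codes of a side and 0.94 to 0.967 between sides. The 10 most abundant genes took 7.978 to 9.207% of the counts on the matrix-high side and 10.42 to 11.56% on the matrix-low side. A matrix-high library, R63500_2, stood apart in heat shock and injury genes: Hspb1, a small heat shock protein, was at 662 CPM there and at 57.2 to 176 CPM in the other 5. Of the 411 genes called higher below, R63500_2 was the highest matrix-high library for 161, and 392 were also called without it. Xist, the X-inactivation transcript, was at 663 to 1480 CPM in all 12 libraries and at 0.649 to 5.89 CPM in the 5 left out.

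The stroma of a bile duct holds fibroblasts, mural cells and vessels in a matrix of fibrillar collagens, fibronectin and proteoglycans, with laminins and type IV collagen in the basement membranes beneath epithelium and endothelium. Collagen chains are hydroxylated and folded in the endoplasmic reticulum, secreted, and crosslinked outside the cell by lysyl oxidases. When oxygen is low, the HIF transcription factors escape hydroxylation by the EGLN enzymes and induce genes of glycolysis, pH control and vessel growth, among them the collagen hydroxylases and lysyl oxidase.

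The genes given as markers of the matrix-high side were the type I and III collagen chains Col1a1 (chr11:94936224-94953042, mm10) and Col3a1 (chr1:45311538-45349706), fibronectin, Fn1 (chr1:71585520-71653200), and Bnip3 (chr7:138890836-138909519), a HIF target of mitochondrial turnover. Col1a1 had a lowest, median and highest level of 2520, 2800 and 3230 CPM against 729, 993 and 1420 CPM, a log2 difference of 1.42. For Fn1 the same 3 values were 2500, 3700 and 4560 CPM against 750, 1400 and 1510 CPM, a log2 difference of 1.51. Bnip3 was at 59.5, 79.4 and 90.4 CPM against 17.3, 23.6 and 27.3 CPM, a log2 difference of 1.76. The 3 genes had no overlap between the sides, and in each the lowest matrix-high library was above the highest matrix-low one. Col3a1 stood at 2790, 3200 and 3630 CPM against 1370, 1740 and 1950 CPM, a log2 difference of 0.94, also without overlap but short of 2-fold, and so was not called. Within the matrix-high side, Fn1 was at 2500 to 3370 CPM in R62848 and at 4030 to 4560 CPM in R63500, which did not pass the test (log2 difference -0.56, SE 0.22, edgeR adjusted p = 0.188). None of the 4 markers passed it on either side, but the codes of a side were put together on the levels of such genes. Col1a1 came nearest on the matrix-low side, lower in R63289 (log2 difference -0.52, SE 0.13, edgeR adjusted p = 0.0515).

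**Figure D1:**
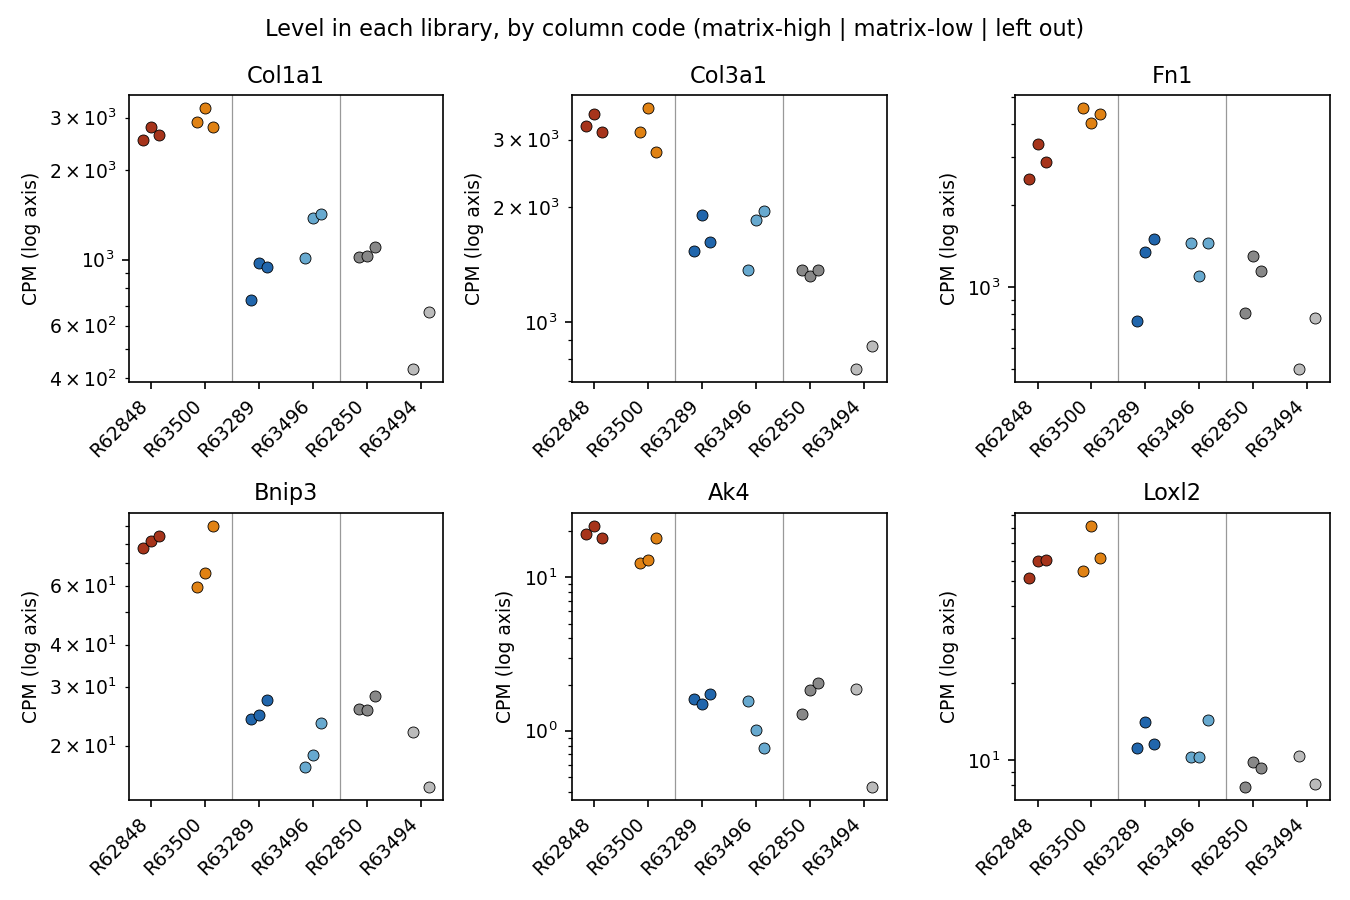
Level of 6 genes in CPM (log axis) in each of the 17 libraries, grouped by column code; each point is 1 library, and vertical lines part the matrix-high, matrix-low and left-out codes. For all 6 genes the 6 matrix-high libraries sit above the 6 matrix-low and the 5 left-out ones.

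Genes of the interstitial matrix, basement membrane, collagen processing and hypoxia targets outside glycolysis were higher on the matrix-high side, with list medians between 1.14 and 1.41 in log2. Genes of fibroblast, mural and endothelial identity had medians between 0.48 and 0.60, and genes of the duct epithelium a median of -0.04. Because the sides were chosen on matrix and hypoxia genes, larger medians in those lists are favoured by the choice. Of 18374 genes kept, 411 (2.24%) were called higher and 126 (0.686%) lower on the matrix-high side. These shares describe a contrast chosen on these values, and nothing is read from them. Without the fold limit, 1326 genes (7.22%) lay wholly above and 883 (4.81%) wholly below, and 266 of the 411 and 61 of the 126 were at least 2-fold apart in each of the 4 pairs of codes across the sides. The median difference over all genes was 0.02. Just inside the limit stood Ednra, the endothelin receptor, at 1.0, and just outside it Pi16 at 0.997; on the other side, Isoc2b was inside at -1.001 and Sidt1 outside at -0.994. Genes called higher had a median exonic length of 3690 bases, those called lower 2813.5, and all genes kept 3207.

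**Figure D2:**
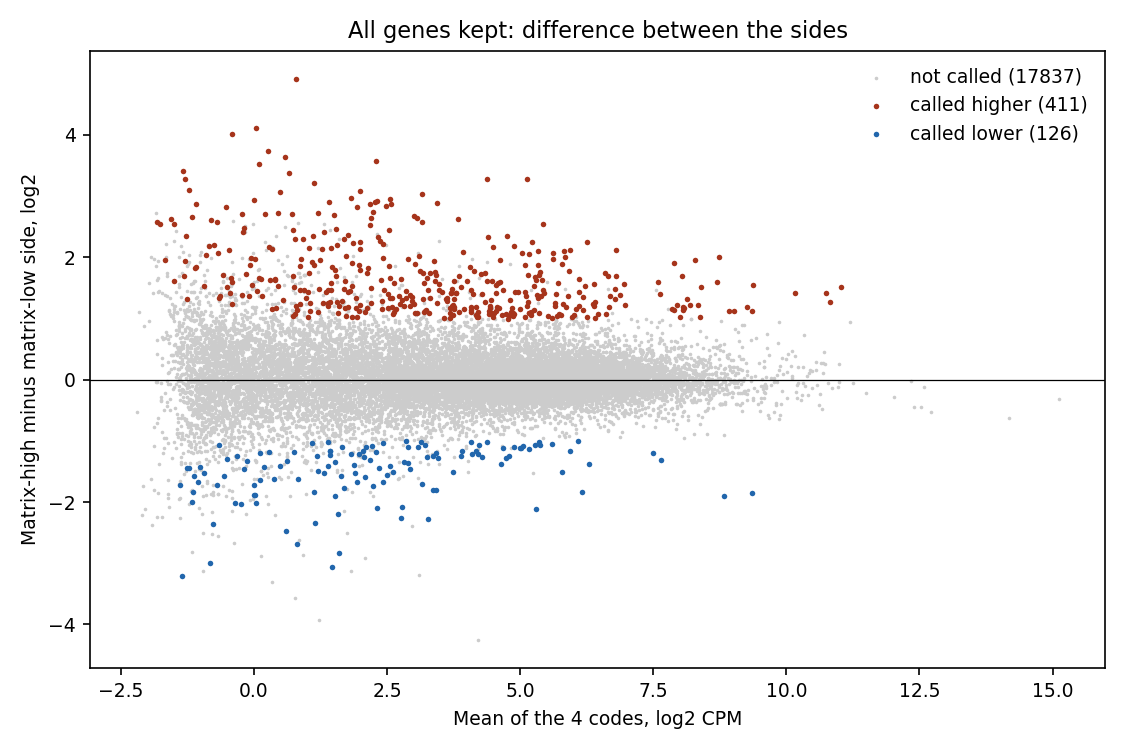
Difference between the sides (vertical axis, log2) against the mean of the 4 codes (horizontal axis, log2 CPM) for the 18374 genes kept; 1 point a gene, coloured where called. The 411 genes called higher reach into the most abundant genes, where few of the 126 called lower lie.

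All 20 listed interstitial matrix genes were kept and 16 were called higher, none lower, with a median difference of 1.41 against 0.02 over all genes. Tenascin C, Tnc, an adhesion-modulating glycoprotein of wounds and tumours, was at 103, 232 and 757 CPM against 33.4, 54.8 and 76.4 CPM, a log2 difference of 2.13. Its highest library was R63500_2, and without that library the difference was 1.86. Col5a1, a chain of the type V collagen that nucleates fibrils, was at 688, 896 and 1040 CPM against 166, 215 and 271 CPM, a log2 difference of 2.01. Col6a3, of the beaded type VI collagen, was at 453, 609 and 875 CPM against 121, 152 and 202 CPM, a log2 difference of 1.96. Neither overlapped between the sides, and both were above every left-out library too, at 66.3 to 175 CPM for Col5a1 and 52.7 to 130 CPM for Col6a3. Sparc, a collagen-binding glycoprotein and per length the most abundant of the list, had a mean of 555 RPKM, which is CPM per kilobase of exon, on the matrix-high side and 212 on the other. Postn, periostin, was called by a small margin, at 302, 356 and 472 CPM against 162, 177 and 207 CPM, a log2 difference of 1.02. In the within-side tests, 1 of the 20 genes passed between the matrix-high codes and 0 between the matrix-low ones. The codes of a side were put together for like levels of matrix genes, so nothing is read from these counts.

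Basement membrane genes followed, with 8 of 12 called higher and a median of 1.14. The type IV collagen chains Col4a1, at 1090, 1120 and 1190 CPM against 319, 398 and 463 CPM, a log2 difference of 1.54, and Col4a2, at 691, 716 and 787 CPM against 186, 262 and 274 CPM, a log2 difference of 1.59, lay in narrow ranges on the matrix-high side. They are neighbours that overlap in the annotation. Lamb1, a laminin beta chain, was at 63.2, 68.3 and 79.7 CPM against 17.8, 20.6 and 26.8 CPM, a log2 difference of 1.67. Nid1, nidogen, which bridges laminin and collagen IV, was at 152, 173 and 206 CPM against 52.9, 71.7 and 85.4 CPM, a log2 difference of 1.32. All 4 were apart in every library.

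Of the enzymes and chaperones that make and crosslink collagen, all 13 kept genes lay wholly above the matrix-low libraries. Over all genes kept that share was 7.22%. Of the 13, 8 were apart by at least 2-fold, and the median was 1.25. Loxl2, a lysyl oxidase that acts on collagen IV, was at 51.3, 60.1 and 81.9 CPM against 10.3, 11.4 and 14.4 CPM, a log2 difference of 2.35. Lox itself was at 116, 170 and 208 CPM against 16.7, 42.7 and 47.1 CPM, a log2 difference of 2.25. Its levels on the matrix-low side were 39.7 to 47 CPM in R63289 and 16.7 to 47.1 CPM in R63496. Plod2, the lysyl hydroxylase of collagen telopeptides, was at 78.4, 103 and 122 CPM against 19.7, 22.3 and 34.3 CPM, a log2 difference of 2.07. Serpinh1, the collagen chaperone HSP47, was the most abundant of the list per length, with means of 185 and 79.2 RPKM. Here too the highest matrix-low library was below the lowest matrix-high one for each gene named.

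Among matrix proteases and their inhibitors the picture was mixed: 9 of 23 genes were called higher, none lower, and 4 of 23 had a negative difference. Mmp7, matrilysin, an epithelial protease, was at 110, 214 and 312 CPM against 71.9, 95.3 and 145 CPM, a log2 difference of 0.99, with overlap between the sides, and was not called. Mmp10, stromelysin 2, was scarce, at 0.366 to 2.5 CPM on the matrix-high side and at most 0.115 CPM on the other, so its fitted difference depends on the prior count and is not given.

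Hypoxia targets outside glycolysis had a median difference of 1.36, with 11 of 21 called higher and none lower. Ak4, a mitochondrial adenylate kinase, was at 12.5, 18.1 and 21.7 CPM against 0.775, 1.53 and 1.74 CPM, a log2 difference of 3.57. Angptl4, a lipoprotein lipase inhibitor, was at 14.3, 19 and 42.6 CPM against 1.68, 3.37 and 5.04 CPM, a log2 difference of 2.64. Car9, the carbonic anhydrase that exports acid, was at 151, 161 and 186 CPM against 50.9, 64.5 and 79.5 CPM, a log2 difference of 1.36. The ranges of these genes did not meet. P4ha1, a catalytic subunit of collagen prolyl hydroxylase, was at 88.6, 106 and 131 CPM against 19.7, 31.3 and 35.4 CPM, a log2 difference of 1.89, but the left-out code R63494, at 95.4 to 99.5 CPM, lay within the matrix-high range. Adm, the vasodilator adrenomedullin, was at 4.76, 9.68 and 13.1 CPM against 0.898, 2.03 and 3.19 CPM, a log2 difference of 2.25. Ndufa4l2, a respiratory chain paralogue induced by HIF that overlaps the gene Shmt2, was at 22.6, 31 and 34 CPM against 3.13, 4.01 and 4.61 CPM, a log2 difference of 2.89. Ddit4, a stress-induced inhibitor of mTORC1, did not follow the group: it was at 133, 143 and 206 CPM against 133, 141 and 161 CPM, a log2 difference of 0.09, with overlap. Lists shared members here: Lox, P4ha1, P4ha2 and Plod2 stand both among hypoxia targets and among collagen enzymes.

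Differences were smaller in glycolysis. Only 4 of 22 genes were called higher, but 15 lay wholly above the matrix-low side, against 7.22% of all genes kept. The median was 0.74. Pgk1, phosphoglycerate kinase, was at 314, 346 and 371 CPM against 145, 153 and 177 CPM, a log2 difference of 1.15. Slc16a3, the lactate exporter MCT4, was at 73.6, 111 and 131 CPM against 33.9, 47 and 59.4 CPM, a log2 difference of 1.20. Ldha, lactate dehydrogenase A, at 698, 781 and 868 CPM against 392, 408 and 484 CPM, a log2 difference of 0.89, and the glucose transporter Slc2a1, at 84.6, 117 and 121 CPM against 58.3, 65.9 and 73.4 CPM, a log2 difference of 0.75, were apart in every library but short of 2-fold. Aldoa, aldolase A, the most abundant per length, had means of 475 and 365 RPKM. Of the HIF pathway's own regulators, 1 of 9 was called, Hif3a, a HIF alpha subunit, at 10.3, 20.4 and 24.4 CPM against 3.45, 5.69 and 7.66 CPM, a log2 difference of 1.74. Egln3, an oxygen sensor, was at 164, 270 and 300 CPM against 143, 160 and 170 CPM, a log2 difference of 0.64, with overlap. The 16 nuclear genes of oxidative phosphorylation all had negative differences, from -0.565 to -0.042, and none was called. Vegfa, the main vessel growth factor, was apart in every library by a log2 difference of only 0.39.

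HIF factors bind DNA at the letters ACGTG within promoters and enhancers, and a few promoters of called genes are shown because they hold these letters close to the start site. Sequences are from RefSeq (GRCm38.p6), the 250 bases before the annotated start, 5′ to 3′ on the gene's strand, with each match to ACGTG or its reverse complement CACGT in capitals. The palindrome CACGTG counts as 2 overlapping matches. The window of Bnip3 is chr7:138909507-138909756 on the minus strand, that of Ak4 chr4:101419453-101419702 on the plus strand, that of Car9 chr4:43506776-43507025 on the plus strand and that of Pgk1 chrX:106186850-106187099 on the plus strand.
Bnip3: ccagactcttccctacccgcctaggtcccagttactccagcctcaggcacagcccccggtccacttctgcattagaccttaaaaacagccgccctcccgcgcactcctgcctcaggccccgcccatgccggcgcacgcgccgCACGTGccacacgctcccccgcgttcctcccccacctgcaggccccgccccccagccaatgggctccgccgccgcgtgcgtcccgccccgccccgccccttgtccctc
Ak4: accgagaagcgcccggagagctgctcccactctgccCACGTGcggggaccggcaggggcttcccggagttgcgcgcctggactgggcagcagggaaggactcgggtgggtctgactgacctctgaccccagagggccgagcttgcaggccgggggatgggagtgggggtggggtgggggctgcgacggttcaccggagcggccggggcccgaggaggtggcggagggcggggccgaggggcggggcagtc
Car9: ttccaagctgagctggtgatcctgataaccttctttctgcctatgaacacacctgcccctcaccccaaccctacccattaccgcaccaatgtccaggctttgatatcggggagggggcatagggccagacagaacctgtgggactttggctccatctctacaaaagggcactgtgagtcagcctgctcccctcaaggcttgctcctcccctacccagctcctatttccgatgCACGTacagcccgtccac
Pgk1: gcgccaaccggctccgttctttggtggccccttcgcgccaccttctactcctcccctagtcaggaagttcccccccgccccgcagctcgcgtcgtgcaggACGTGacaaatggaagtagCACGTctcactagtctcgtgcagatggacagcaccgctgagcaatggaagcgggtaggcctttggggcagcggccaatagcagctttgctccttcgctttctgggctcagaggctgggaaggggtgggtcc
The matches began 108 and 107 bases before the start in Bnip3, 214 and 213 in Ak4, 18 in Car9 and 150 and 131 in Pgk1. Of the 43 genes of the hypoxia and glycolysis lists, 37 had a promoter in the table, and 25 of their 58 windows (43.1%) held a match. Of 15 windows of 11 such genes called higher, 9 (60.0%) did. Over 14217 windows of 11148 kept protein-coding genes the share was 20.3%, and over 33 windows of 29 matrix, basement membrane and collagen folding genes it was 18.2%. The lists were made up of known hypoxia and glycolysis genes, and the called genes were picked on these same levels. The shares therefore depend on that choice, and no conclusion is drawn from them. Genes not called, such as Ldha (0.89), Ddit4 (0.09) and Pfkm (-0.20), held matches too. A match is a run of letters and not a shown binding site, and its part in these levels was not tested.

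**Figure D3:**
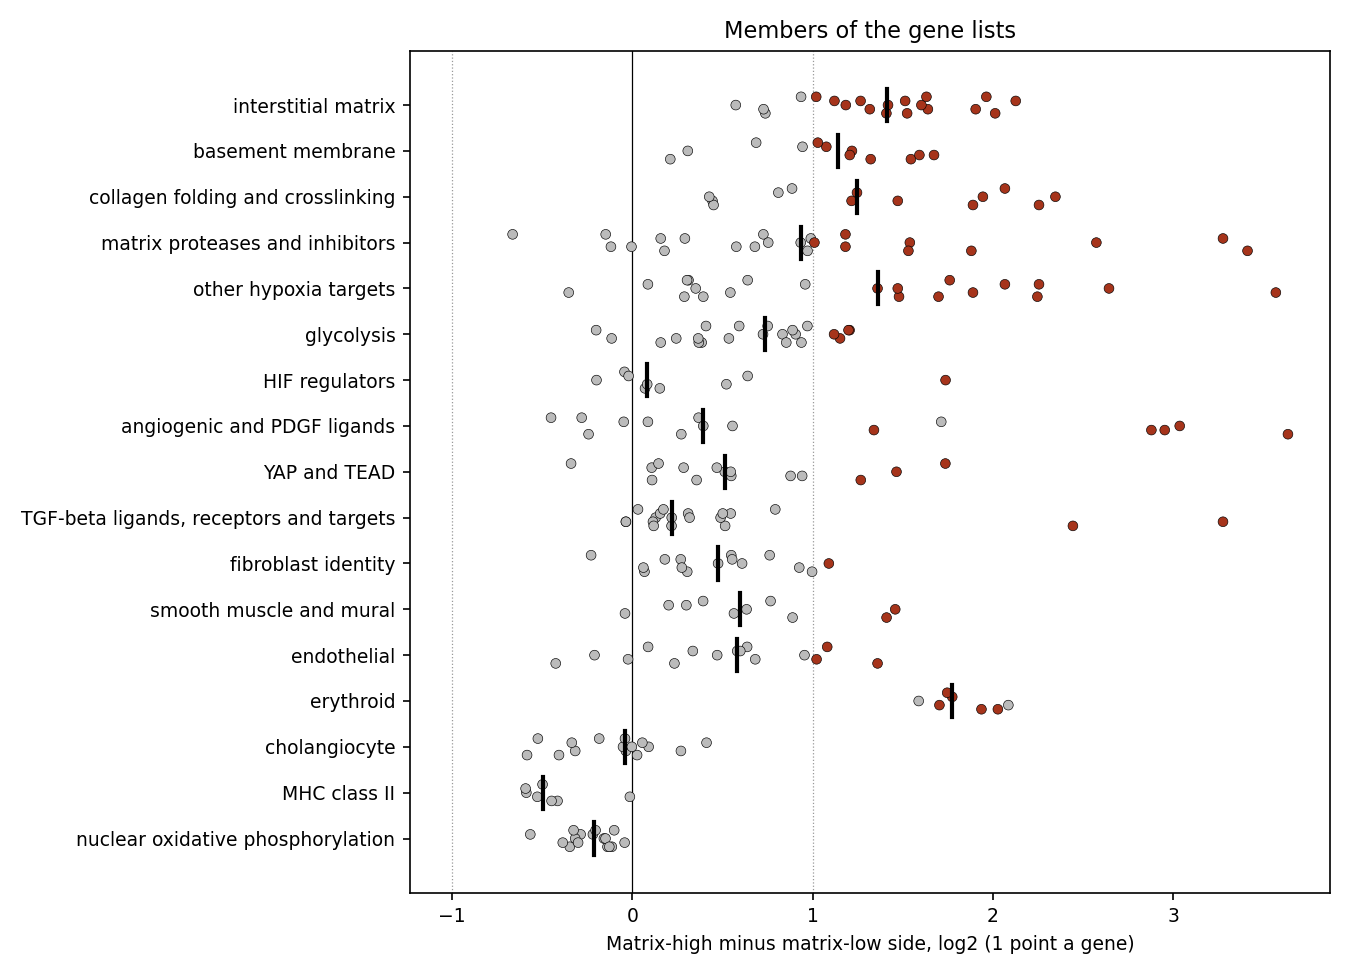
Difference between the sides (log2) for each kept member of 17 gene lists; 1 point a gene, red where called higher, black bars the list medians, dotted lines 2-fold. Matrix and hypoxia lists sit to the right of the fibroblast, mural and endothelial lists, and the cholangiocyte list is centred near 0. The sides were chosen on matrix and hypoxia genes.

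Among genes that identify fibroblasts differences were smaller than among matrix genes. The sides were chosen on matrix and hypoxia genes, which by itself favours such a gap. Of 15 listed, 1 was called higher, Mfap5, a microfibril protein, at 45.9, 61.4 and 74.6 CPM against 19.3, 29.2 and 36.1 CPM, a log2 difference of 1.09, and that call was lost without R63500_2, where the difference was 0.98. The list median was 0.48, and 14 of the 15 differences were positive. Wholly above the matrix-low libraries lay 5 of the 15, against 7.22% of all genes kept. The number called was 4 without code R63500 and 0 without R62848, with medians of 0.55 and 0.26. Dcn, decorin, the most abundant fibroblast marker per length, was at 580, 692 and 872 CPM against 494, 700 and 771 CPM, a log2 difference of 0.06, fully overlapping. Pi16, of adventitial fibroblasts, was at 178, 238 and 297 CPM against 82.3, 120 and 142 CPM, just under 2-fold. Prrx1, a mesenchymal transcription factor, was at 64, 69.2 and 101 CPM against 31.1, 38.5 and 47.1 CPM, a log2 difference of 0.93. Mean list levels were 5.294 to 5.9 log2 CPM on the matrix-high side and 4.901 to 5.282 on the other, so the lowest matrix-high library was only just above the highest matrix-low one.

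Mural and endothelial genes gave 2 of 10 and 3 of 15 called higher, with medians of 0.60 and 0.58. The pericyte proteoglycan Cspg4 was at 12.8, 19.6 and 24.2 CPM against 4.86, 6.9 and 7.72 CPM, a log2 difference of 1.46. Cdh5, VE-cadherin of endothelial junctions, was at 78.6, 98.5 and 111 CPM against 31.4, 37.9 and 44.5 CPM, a log2 difference of 1.36. Acta2, smooth muscle actin, was at 69.8, 97.9 and 110 CPM against 41.5, 50.6 and 62.1 CPM, a log2 difference of 0.89, apart but not called. Plvap, of fenestrated endothelium, was at 45.6, 66.4 and 95.2 CPM against 44.4, 50.4 and 61 CPM, a log2 difference of 0.34, with overlap. Of 15 listed angiogenic and PDGF ligands, 5 were called higher and none lower, with a median of 0.39. The chemokine Cxcl12 (-0.45), the lymphatic growth factor Vegfc (-0.28) and the TIE2 agonist Angpt1 (-0.24) had negative differences. Apln, the apelin peptide of sprouting endothelium, was at 11, 28.7 and 41.1 CPM against 2.19, 2.99 and 4.14 CPM, a log2 difference of 3.04. Angpt2, the TIE2 ligand angiopoietin 2, lies within Mcph1 and was at 8.54, 14.5 and 36.2 CPM against 1.07, 2.07 and 3.26 CPM, a log2 difference of 2.95. Esm1, a tip cell proteoglycan, was at 10.3, 15.7 and 28.3 CPM against 1.1, 2.3 and 3.54 CPM, a log2 difference of 2.88. Gpihbp1, which holds lipoprotein lipase on capillaries, was at 8.04, 11.4 and 18.8 CPM against 0.449, 2.02 and 2.97 CPM, a log2 difference of 2.87. None of these 4 ranges overlapped. Of 12 Notch genes, 3 were called higher and none lower, with a median of 0.36. Dll4, a Notch ligand, was at 23, 34 and 39.4 CPM against 10.8, 14.3 and 16.5 CPM, a log2 difference of 1.18. Heyl was at 1.47 and Notch4 at 1.36 in log2. Not called were Notch1 (0.20), Jag1 (0.17) and Hes1 (-0.40), nor was Dll1 (-0.73), which was lower in every matrix-high library.

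Cholangiocyte genes had a median of -0.04, with 0 of 15 called. Krt8, a keratin of simple epithelium, was at 1590, 2030 and 2710 CPM against 1830, 2070 and 2340 CPM, a log2 difference of -0.04. Muc1, a membrane mucin, was lower in every matrix-high library, at 651, 786 and 911 CPM against 1080, 1160 and 1260 CPM, a log2 difference of -0.58, without reaching 2-fold. Krt7, a duct keratin, was at 368, 438 and 723 CPM against 284, 349 and 401 CPM, a log2 difference of 0.41, with overlap. These duct markers were abundant on both sides. Of 10 squamous and injury genes kept, 3 were called higher and none lower, with a median of 0.60. Krt5, Trp63 and Ivl, markers of squamous epithelium, did not pass the filter on low counts, and Krt17 (-0.25) and Krt23 (-0.79) had negative differences. Krt6a, a keratin of stressed and squamous epithelium, was at 4 to 34.6 CPM on the matrix-high side and at 0 to 0.885 on the other, and Krt6b, a near-identical copy that may share its reads, at 0.595 to 2.07 and 0 to 0.221. Sprr1a, a cornified envelope precursor, was at 5.15, 10 and 90.5 CPM against 1.01, 1.6 and 2.99 CPM, a log2 difference of 2.92. Its highest value was again R63500_2, and the next was 24.6 CPM. Krt20, a keratin of intestinal and urothelial lining, was at 11.4, 12.2 and 17.1 CPM against 0.9, 1.74 and 2.58 CPM, a log2 difference of 2.90, and its left-out libraries were at 3.68 to 9.93 CPM. Prss22, a serine protease of airway epithelium, was at 7.88, 11.2 and 17.6 CPM against 0.841, 1.24 and 1.74 CPM, a log2 difference of 3.08.

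Erythroid genes were higher with the matrix genes, with 5 of 7 called and a median of 1.77. Hbb-bs, adult beta globin, was at 65.9, 116 and 170 CPM against 25.9, 30.2 and 48.2 CPM, a log2 difference of 1.77, and Alas2, the erythroid haem synthesis enzyme, was at 3.95, 5.94 and 12.3 CPM against 1.01, 1.49 and 2.38 CPM, a log2 difference of 2.03. Globin copies share sequence, so the split between them is uncertain. Mean list levels were 2.127 to 3.436 log2 CPM on the matrix-high side and 0.59 to 1.273 on the other, and their part in the other differences was not tested. Of the immune lists, neutrophil, macrophage, T cell and B and plasma cell genes had no member called, with medians of -0.42, 0.33, -0.01 and -0.33. Mast cell and eosinophil genes had a median of -0.68, with 2 of 9 differences positive. In that list Mcpt2 was called lower, at a log2 difference of -1.16. The signs of the neutrophil, T cell and B and plasma cell medians depended on which codes were included, as did that of the cholangiocyte median. MHC class II genes all had negative differences with a median of -0.50. H2-Aa, a class II alpha chain, was at 178, 218 and 291 CPM against 298, 343 and 450 CPM, a log2 difference of -0.59, apart in every library. Of 18 inflammatory cytokine and chemokine genes kept, 13 had positive differences and the median was 0.82. Ccl7 (2.73) and Il33 (2.105) were called higher. Only Il1b, the inflammatory cytokine, was called lower, at 32.1, 43.7 and 72.6 CPM against 102, 124 and 187 CPM, a log2 difference of -1.38.

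A marker each of fat, pancreas and liver (Adipoq, Pnlip and Alb) overlapped between the sides. Adipocyte genes had a median of -1.08 with none called, and Adipoq, adiponectin, reached at most 0.963 CPM on the matrix-high and 2.4 CPM on the matrix-low side. The acinar lipase Pnlip reached at most 1.84 and 0.785 CPM in the 12 libraries, against 522 to 12100 CPM in the left-out code R62850. Albumin, Alb, was at 0.914, 2.23 and 31.4 CPM against 3.82, 8.16 and 21.9 CPM, overlapping.

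**Figure D4:**
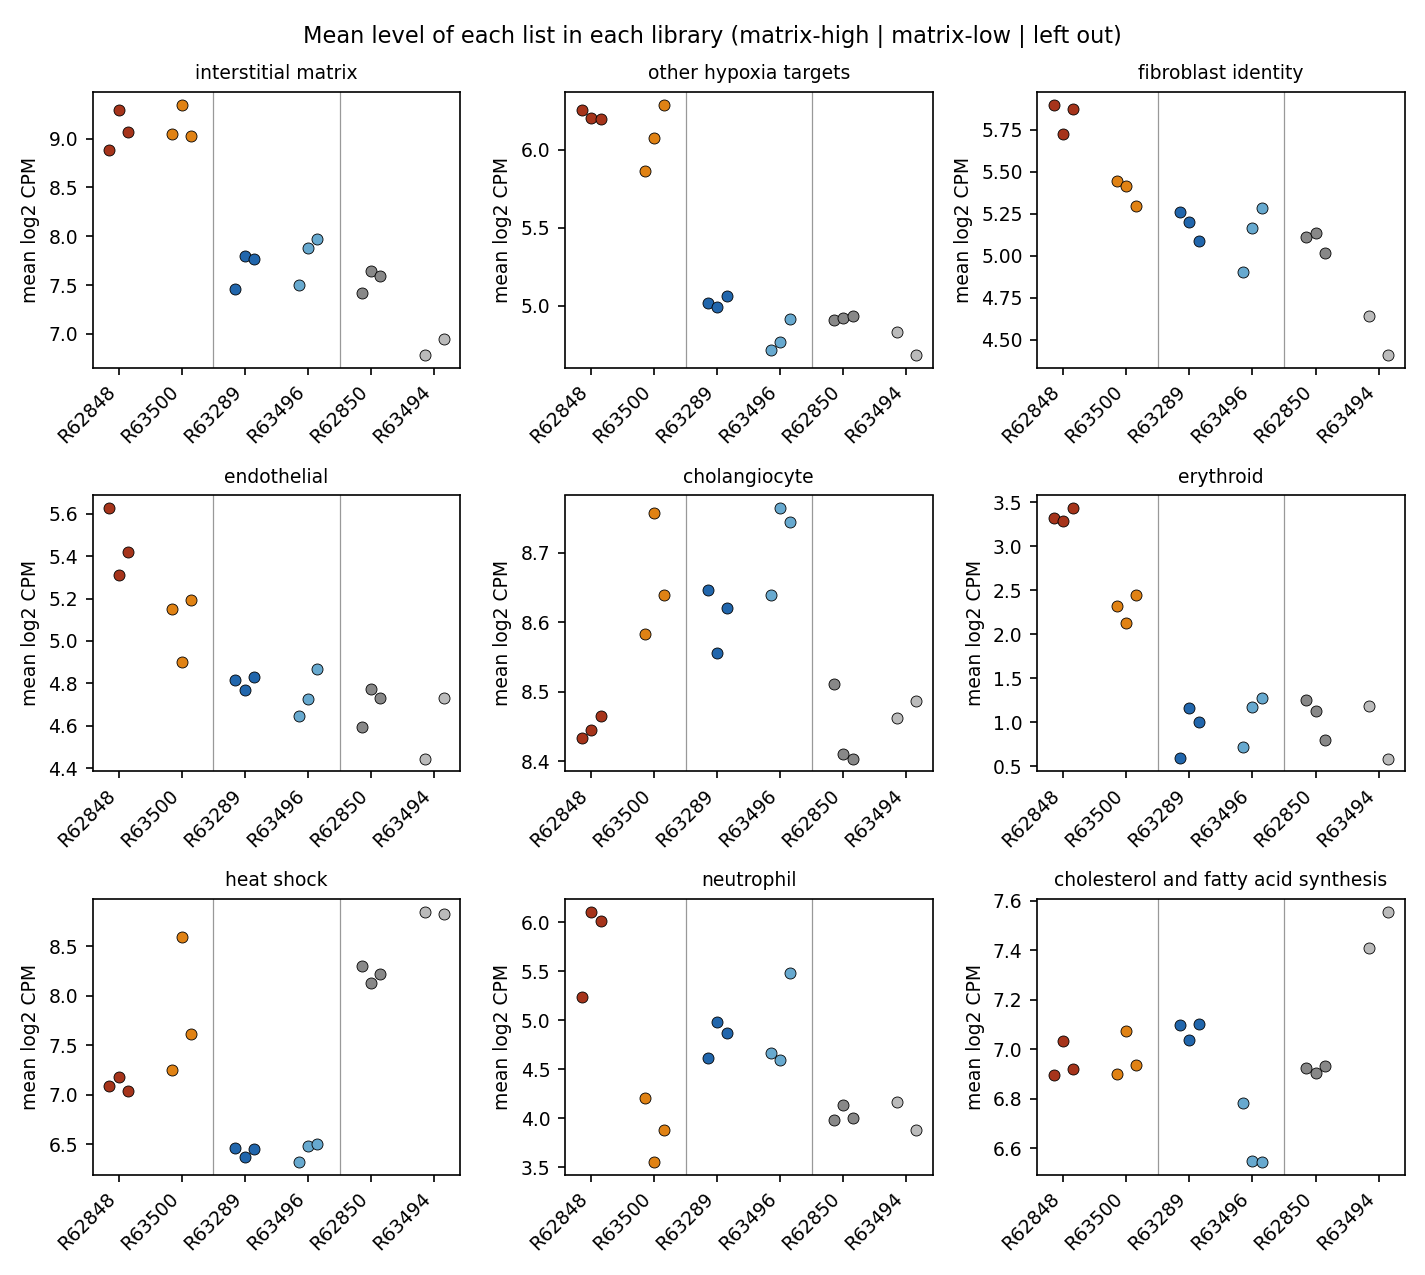
Mean log2 CPM of the kept members of 9 gene lists in each of the 17 libraries, grouped by code (1 point a library; vertical lines part matrix-high, matrix-low and left-out codes; axes do not start at 0). Matrix and hypoxia lists part the sides widely, neutrophil genes part R62848 from R63500, and heat shock genes are highest in left-out codes and in 1 library of R63500.

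Signalling lists differed in a few members each. In a list of YAP and TEAD factors, their regulators and targets, a pathway that responds to stretch and matrix stiffness, 3 of 15 were called higher and the median was 0.51. The factors Yap1 (0.15) and Wwtr1 (0.47) and Tead1 (0.11), Tead2 (-0.34), Tead3 (0.11) and Tead4 (0.55) were not called. Called were Ctgf, a matricellular growth factor, at 144, 167 and 230 CPM against 33.6, 56 and 69.2 CPM, a log2 difference of 1.74, its relative Cyr61 at 1.27 and the nuclear ankyrin protein Ankrd1 at 1.47 in log2. In the TGF-beta list, 2 of 19 were called. Inhba, an activin subunit among them, was at 7.56, 9.77 and 55.2 CPM against 1.05, 2.51 and 4.41 CPM, a log2 difference of 2.44, with R63500_2 far above the rest. Tgfbi, a secreted TGF-beta target, was at 125, 163 and 216 CPM against 130, 151 and 170 CPM, a log2 difference of 0.12. Of 14 genes of epithelial to mesenchymal transition, 2 were called higher and none lower, with a median of 0.16. The repressor Snai1, at 17, 20.1 and 37.2 CPM against 4.69, 8.86 and 10.3 CPM, a log2 difference of 1.49, and N-cadherin, Cdh2, at 3.32, 5.25 and 10.2 CPM against 0.673, 1.45 and 2.29 CPM, a log2 difference of 1.79, were called, and E-cadherin, Cdh1, overlapped, at 751, 828 and 1050 CPM against 728, 844 and 885 CPM, a log2 difference of 0.03. Vimentin, Vim, lay apart at a log2 difference of 0.78. The transcription factors Twist1 (-0.23) and Twist2 (-0.36) and the calcium-binding protein S100a4 (-0.30) had negative differences.

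In a list of integrin chains and the hyaluronan receptor Cd44, 3 of 14 were called higher and the median was 0.34. Called were Itgb3 at 15.6, 18.5 and 21 CPM against 4.92, 5.66 and 7.9 CPM, a log2 difference of 1.60, Itga5 at 1.15 and Itga1 at 1.05 in log2. Of p53 targets, 3 of 13 were called, led by the cell cycle inhibitor Cdkn1a at 47.2, 58.2 and 117 CPM against 15, 18 and 20.6 CPM, a log2 difference of 1.88. Phlda3, a repressor of AKT, was at 1.02, and the third was the receptor Eda2r at 1.15. Of 18 proliferation genes only Mcm6, a replication helicase subunit, was called, at 18.6, 26.8 and 35.8 CPM against 9.5, 13.4 and 14.9 CPM, a log2 difference of 1.02. Of 10 Hedgehog genes, 2 were called, among them the transcription factor Gli2 at 1.11, while the signal transducer Smo was at -0.06. WNT, MAPK feedback, interferon, unfolded protein, NRF2 and bile acid lists had no call in either direction. The chaperone Hspa5 of the unfolded protein list was apart in every library, at 1030, 1250 and 1650 CPM against 573, 678 and 753 CPM, a log2 difference of 0.94.

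Of 11 heat shock genes, 5 were called higher, against 2.24% of all genes kept. Wholly above the matrix-low libraries lay 8, against 7.22%, and the median was 0.63. Mean list levels were 7.036 to 8.596 log2 CPM on the matrix-high side and 6.317 to 6.499 on the other, and their part in the other differences was not tested. Hspa1a, the inducible HSP70, was at 19.4, 29.4 and 311 CPM against 8.23, 8.86 and 12.3 CPM, a log2 difference of 2.33, and its copy Hspa1b, nearly identical in sequence, at 2.11 in log2. Without R63500_2 the difference of Hspa1a was 1.91. Levels in the left-out codes were higher than in most matrix-high libraries, at 194 to 221 CPM in R62850 and 571 to 586 CPM in R63494. Cytokine and stress genes with the same single high library were Il33, an alarmin, at 57.8, 109 and 302 CPM against 22.2, 27.1 and 36.2 CPM, a log2 difference of 2.10, and Fosb, an immediate early factor, at 1.62 in log2. Without R63500_2 these 2 differences were 1.78 and 1.32, that of Hspb1 was 1.58, that of Sprr1a 2.51 and that of Inhba 2.08, and all stayed called. Mt2, a metallothionein that binds zinc, was at 33.5, 74.2 and 91.2 CPM against 3.69, 6.74 and 11.6 CPM, a log2 difference of 3.29, but R62850 spanned 11.7 to 75.5 CPM.

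Genes lower on the matrix-high side were fewer. The largest difference among abundant ones was in Mup20, a major urinary protein of a family of near-identical copies, at 0.416, 0.827 and 1.79 CPM against 3.11, 7.63 and 25.1 CPM, a log2 difference of -3.05. Sectm1b, a secreted ligand of T and NK cells, was at 3.29, 4.04 and 7.22 CPM against 15, 22 and 25.2 CPM, a log2 difference of -2.27. Anxa13, an annexin of gut and kidney epithelium, was at 13.1, 15.5 and 33.7 CPM against 47.9, 85.7 and 147 CPM, a log2 difference of -2.12. Each was apart in every library. Wfdc18, a secreted WAP domain protein, was at 134, 234 and 417 CPM against 693, 928 and 991 CPM, a log2 difference of -1.90. Ambp, the precursor of alpha-1-microglobulin and bikunin, was at 15.7, 45.3 and 72.8 CPM against 106, 135 and 162 CPM, a log2 difference of -1.83. Etv1, an ETS transcription factor, was at 3.86, 5.84 and 8.27 CPM against 12.9, 20.4 and 28.3 CPM, a log2 difference of -1.81. Cyp2e1, a cytochrome P450 best known from hepatocytes, was at 4, 4.74 and 5.92 CPM against 9.07, 17.2 and 24.5 CPM, a log2 difference of -1.70, with 0 of the other 7 kept hepatocyte genes called. Scd1, the stearoyl-CoA desaturase, was the only gene of cholesterol and fatty acid synthesis called, at 13.5, 14.4 and 21.1 CPM against 24.3, 40.3 and 59 CPM, a log2 difference of -1.37. Extl1 and Pigz, enzymes that add sugars to heparan sulphate and to membrane anchors, were at -2.27 and -2.09, and the remaining named genes Ccdc148 and Ky at -2.08 and -1.80. Cep85, a centrosomal protein, was at 90.2, 485 and 895 CPM against 1010, 1200 and 1560 CPM, a log2 difference of -1.85, but R62848 and R63500 differed widely, with 90.2 to 280 CPM and 689 to 895 CPM.

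The 5 left-out libraries, which the contrast did not use, were below all 6 matrix-high libraries for 306 of the 411 genes called higher (74.5%). Taken by code, R63494 was below them for 371 genes and R62850 for 322. For the genes called lower, all 5 were above the matrix-high libraries for 58 of 126 (46%). The matrix list was at 7.423 to 7.64 log2 CPM in R62850 and 6.783 to 6.947 in R63494, against 7.456 to 7.974 on the matrix-low side. These codes were seen when the sides were chosen. They also differed from every compared library in Xist, at the levels given above. Genes called higher were picked for high levels in every matrix-high library, and genes called lower for low ones. That choice by itself favours such counts. The same share over all genes kept was not computed, so the counts are a description.

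Within the matrix-high side, 1039 genes differed between R62848 and R63500 (edgeR, adjusted p under 0.05), 610 above (3.32%) and 429 below (2.33%) in R62848, 431 of them by at least 2-fold. Neutrophil genes were 10 of 11 above and 0 below, with a median log2 difference of 1.81. S100a8, a calprotectin subunit of neutrophils, was at 253 to 464 CPM in R62848 and at 69.3 to 120 CPM in R63500 (log2 difference 2.01, SE 0.27, edgeR adjusted p = 0.0026). The receptor Csf3r was at 220 to 380 CPM and 86.9 to 157 CPM (log2 difference 1.38, SE 0.23, edgeR adjusted p = 0.00716). The neutrophil count was 8 to 10 when single libraries were left out. Erythroid genes were above in 5 of 7 (3 of 7 without R62848_3), with Hbb-bs at 150 to 170 CPM against 65.9 to 82.6 CPM (log2 difference 1.11, SE 0.20, edgeR adjusted p = 0.00954). Fibroblast identity genes were above in 5 of 15, among them Twist1, Dpep1 and Fap, but in only 2 of 15 without R63500_3. Of 10 gland mucin genes, 4 were below and 1, Muc5b, was above in R62848, and 2 to 4 were below and 0 or 1 above when single libraries were left out.

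The strongest single genes on that side were mostly unlisted. Eno1b, a near-identical copy of the enolase gene Eno1 whose reads may be shared, was at 55.4 to 66.4 CPM in R62848 and 5.98 to 7.75 CPM in R63500 (log2 difference 3.17, SE 0.14, edgeR adjusted p = 2.52e-09). Ifi202b, an interferon-inducible DNA-binding protein, was at 29.8 to 39.6 CPM and 0.112 to 0.481 CPM. The unannotated gene Gm26685 was at 29.2 to 52.6 CPM and 0 to 0.208 CPM, while the matrix-low codes had 23.5 to 33.6 CPM. Both were near 0 in R63500 only, and the left-out codes had 25.4 CPM or more of Gm26685. Tmem45b, a membrane protein, went the other way, at 21.8 to 25.9 CPM and 92.8 to 113 CPM (log2 difference -2.14, SE 0.10, edgeR adjusted p = 2.52e-09). Pla2g2f, a secreted phospholipase, was at 63.9 to 77.8 CPM and 209 to 316 CPM (log2 difference -1.87, SE 0.13, edgeR adjusted p = 3.27e-07). Car8, a catalytically inactive carbonic anhydrase relative, was also below in R62848 (log2 difference -1.29, SE 0.11, edgeR adjusted p = 5.36e-06).

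Within the matrix-low side, 424 genes differed between R63289 and R63496, 256 above (1.39%) and 168 below (0.914%) in R63289, 160 of them by at least 2-fold. Cholesterol and fatty acid synthesis genes were 10 of 16 above and 0 below in R63289, with a median of 0.54, and 8 to 11 when single libraries were left out. Hmgcs1, an early enzyme of the mevalonate pathway, was at 206 to 211 CPM in R63289 and 104 to 125 CPM in R63496 (log2 difference 0.88, SE 0.08, edgeR adjusted p = 3.28e-05). Insig1, the sterol-sensing retention protein, was at 105 to 115 CPM and 48.3 to 62 CPM (log2 difference 1.0, SE 0.10, edgeR adjusted p = 3.28e-05). For both the codes did not overlap. Dclk1, a kinase of tuft cells and neurons, was at 123 to 131 CPM and 36.2 to 40.5 CPM (log2 difference 1.72, SE 0.08, edgeR adjusted p = 1.1e-08). On the other side of 0, B3gnt3 and Gcnt3, glycosyltransferases of mucin-type glycans, were at 32.5 to 36.7 CPM against 82.9 to 103 CPM (log2 difference -1.46, SE 0.10, edgeR adjusted p = 9.45e-07) and at 112 to 136 CPM against 253 to 286 CPM (log2 difference -1.13, SE 0.09, edgeR adjusted p = 6.63e-06). Tmem45b again differed, at 43.2 to 49.9 CPM and 112 to 128 CPM (log2 difference -1.32, SE 0.10, edgeR adjusted p = 2.86e-06). Of 10 gland mucin genes, the trefoil factors Tff1, Tff2 and Tff3 were below in R63289 and Gkn3, a gastrokine, was above, and 2 to 3 were below and 0 or 1 above when single libraries were left out (0 above without R63289_1).

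The size of the within-side counts depended on single libraries. Between R62848 and R63500 they were 692 without R62848_2, 571 without R62848_3, 666 without R63500_2 and 658 without R63500_3. Between R63289 and R63496 they were 226 without R63289_1, 170 without R63289_2, 226 without R63289_3 and 206 without R63496_2, but 1067 without R63496_1. Of the 537 genes called between the sides, 53 were also called between the matrix-high codes, 20 between the matrix-low codes and 470 in neither test. Over all 18374 genes kept, these tests called 1039 and 424. Calls between the sides required no overlap, which bears on these counts, and nothing is read from them. Some named calls near the 2-fold limit between the sides also ended without single libraries. Postn was not called without R62848_3 (0.965), R63496_1 (0.99) or R63496_3 (0.992), and Phlda3 without R62848_1 (0.939), R63289_2 (0.981) or R63500_2 (0.939). Mcm6 was not called without R62848_2, R63289_1, R63496_1, R63500_1 or R63500_3 (0.935 to 0.997), and Itga1 without R62848_2, R63289_1 or R63289_2 (0.984 to 1). Itga5 was not called without R63500_2 (0.989), nor Gli2 without R63496_1 (0.978).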

How the data were processed

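Bulk RNA-seq of mouse bile duct tissue was deposited as 1 table of 43346 genes with whole-number read counts per gene and library. Per the submitters' processing notes the authors used STAR 2.6.1c, featureCounts and edgeR 3.40.2 with the build mm10; featureCounts' strand option, its version and the gene annotation were not given in the sources used here. The authors' 17 normalized columns were not used. Columns could not be tied to single samples, so libraries are named by column code. The members and gene lists were chosen with earlier results of these data known. From the deposited counts, genes were filtered with filterByExpr over the 12 libraries (18374 kept), scaled by TMM over all 17 and put on a log2 CPM scale with a prior count of 2 (edgeR 4.0.16, R 4.3.3). RPKM used the deposited gene lengths. The 2 codes of a side were compared with edgeR's quasi-likelihood test in 1 fit of the 4 codes, with Benjamini-Hochberg adjustment over all genes kept and a threshold of 0.05. That test reports no standard error. The SE given is the absolute log2 difference divided by the square root of the test's F statistic. The script recovered changes planted in simulated data, where codes differed only in the planted genes and sides were not chosen on the outcome. That checked the script and not the calls made here. Depth was 16400556 counts or more in each of the 12 libraries. Of 594 genes in 47 lists, 593 matched the table, 4 by identifier and 1 by a RefSeq synonym. Named were the 4 markers, the 12 protein-coding genes with the largest difference in each direction with a mean of at least 10 CPM on their higher side, the 3 listed members with the largest difference and the most abundant one, and 6 genes in each direction of each within-side test; some of these are not reported here. Further listed genes, such as Car9, P4ha1, Ldha, Postn and S100a8, were named after their values were seen. Pairs of libraries of 1 code differed beyond sampling noise, with a chi-square per degree of freedom of 4.13 to 34.1 in 12 pairs. Alternatives were other scalings (DESeq2 1.42.0 size factors, total counts), no filter, another prior count, another fold, DESeq2 and limma 3.58.1 tests, and leaving out each library or code.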

Additional observations from a re-analysis of the deposited data

How the results depend on the processing

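The number of genes called higher on the matrix-high side (411) was 766 at a difference of at least 1.5-fold and 266 when 2-fold was asked of each of the 4 pairs of codes. It was 640 without code R62848, 642 without R63500 and 628 without R63289, where fewer libraries must not overlap, and 419 to 486 without single libraries. The number called lower (126) was 322 at 1.5-fold and 61 over the 4 pairs, 384 without R62848, 292 without R63500, 276 without R63289 and 309 without R63496, and 128 to 179 without single libraries. Between R62848 and R63500, 1039 genes were called and 571 to 977 without single libraries. DESeq2's Wald test called 1540. Between R63289 and R63496, 424 were called, 828 by DESeq2's Wald test, and 170 to 1067 without single libraries; the cause was not tested. No paired analysis was possible because the columns carry codes with no labelled pairing. Other scalings moved the median over all genes from 0.018 to 0.002 or 0.003, and no called difference of a named gene reversed. Of the values for lists and named genes under the alternatives, 4487 moved by less than the spread between libraries and 301 by more, nearly all of these without 1 code. Differences of scarce genes depend on the prior count.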
